A study of Homo sapiens with 4 samples.

Results

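This account concerns TBX3 binding in MaLR and ERVL elements, 2 related groups of long terminal repeat (LTR) retrotransposons, in the human melanoma cell line 501mel. Genome binding was measured by chromatin immunoprecipitation followed by sequencing of TBX3 carrying a 3xHA tag, a short peptide recognised by the anti-HA antibody. The ChIP group held 2 samples of 501mel cells labelled TBX3-3xHA, and the input group held 2 samples of 501mel chromatin taken without antibody, which were not analysed here. All samples shared 1 cell line, and the labels name no treatment and no control cells without the tag, and do not say how the tagged protein was introduced or whether the replicates came from separate cultures. Replicate 1 gave 32479 summits and replicate 2 gave 40494, each a single base in hg38 with a peak score deposited by the authors. Read depth is unknown, and with 1 ChIP condition no test between conditions was possible. The shares given here are descriptions of these 2 libraries, and their 95% Wilson intervals cover counting error only.

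The members were the replicate 1 summits that the deposited annotation placed in the repeat class LTR with a family name starting with ERVL, and that had a mutually nearest summit within 200 bp in replicate 2. There were 1596 members among 22702 summit pairs in all (7.03%). They came from 2400 ERVL summits in replicate 1, of which 66.5% had a partner (64.6% to 68.4%), beside 69.9% of all 32479 replicate 1 summits. Since a partner was part of the choice, this share describes the members and supports nothing about them.

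Endogenous retroviruses of class III, to which both groups belong, are old insertions that are copied through RNA and are flanked by identical LTRs when they insert. An LTR carries the promoter and enhancer of the element, while the internal part between the LTRs encodes the viral proteins in autonomous elements such as HERVL. MaLR elements, named MLT1, MST and THE1 from the oldest to the youngest, are non-autonomous relatives whose copies mostly survive as solitary LTRs. TBX3 is a T-box transcription factor known mainly as a repressor, and T-box proteins recognise DNA around the letters GGTGTG.

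Sequence at the members was at hand only where a summit fell in a window of 300 bases around an annotated RefSeq transcript start (GRCh38.p14, 250 bases before and 50 from the start on). The replicate 1 summit of 7 members lay inside such a window, and 2 more members lay within 100 bp of one. Of the 7 windows, 5 belonged to long non-coding RNAs and 2 to protein-coding genes, RAP1GAP2 and TRPM8. The following 4 are shown because they hold the members with the highest replicate 1 scores of the 7. Each runs 5′ to 3′ on the strand of the gene over 270 bases, with the last 20 from the start site on. Capitals mark the letters searched on both strands, which were the T-box core GGTGTG, the E-box CACGTG, the M-box TCATGTG bound by MITF, the AP-1 site TGANTCA and the SOX letters ACAAAG.
LOC124903000, MLT1K, chr12:103802444-103802713, plus strand: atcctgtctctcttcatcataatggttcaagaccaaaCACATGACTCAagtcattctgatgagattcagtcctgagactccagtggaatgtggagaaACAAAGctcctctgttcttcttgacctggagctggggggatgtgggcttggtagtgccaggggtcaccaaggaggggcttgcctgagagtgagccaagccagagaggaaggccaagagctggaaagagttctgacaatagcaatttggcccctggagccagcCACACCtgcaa
LOC105377503, MLT1G, chr4:155428264-155428533, plus strand: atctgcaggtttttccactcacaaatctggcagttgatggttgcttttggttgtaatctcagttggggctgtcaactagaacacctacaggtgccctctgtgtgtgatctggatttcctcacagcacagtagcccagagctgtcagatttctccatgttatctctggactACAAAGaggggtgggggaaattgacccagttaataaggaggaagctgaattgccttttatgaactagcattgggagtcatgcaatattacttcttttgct
TRPM8, LTR105_Mam, chr2:233929433-233929702, plus strand: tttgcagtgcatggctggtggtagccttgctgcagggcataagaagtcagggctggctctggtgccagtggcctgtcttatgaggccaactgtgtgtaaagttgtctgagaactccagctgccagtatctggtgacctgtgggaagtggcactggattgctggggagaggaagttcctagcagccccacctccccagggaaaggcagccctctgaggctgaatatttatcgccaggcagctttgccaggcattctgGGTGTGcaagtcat
LOC105376065, MER77, chr9:41565691-41565960, minus strand: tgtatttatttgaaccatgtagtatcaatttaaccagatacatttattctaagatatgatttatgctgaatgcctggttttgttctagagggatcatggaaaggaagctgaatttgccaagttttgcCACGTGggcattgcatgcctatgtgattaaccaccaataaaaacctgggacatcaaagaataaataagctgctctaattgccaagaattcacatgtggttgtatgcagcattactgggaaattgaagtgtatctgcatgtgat

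The window of LOC124903000, a long non-coding RNA, held the member with the highest scores of the 7, at 93.5 in replicate 1 and 105.4 in replicate 2. Its summits lay 191 bp and 200 bp before the start site, in an MLT1K element. The reverse of the M-box ended 16 bp from the replicate 1 summit and 7 bp from the replicate 2 summit. An AP-1 site overlapped this M-box by 3 bases and lay 12 bp and 3 bp from the summits, whereas the T-box core was 200 bp and 209 bp away. At LOC105377503 the member in an MLT1G element had scores of 40.6 and 59.6, and its summits lay 145 bp and 131 bp before the start. Of the letters searched, its printed sequence held only the SOX letters, 65 bp and 51 bp from the summits.

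TRPM8, which encodes the cold and menthol receptor channel, had a member in an LTR105_Mam element at an annotated start within the gene, with scores of 24.99 and 22.1. The T-box core lay 103 bp from the replicate 1 summit and 11 bp from the replicate 2 summit. The deposited distance for this member, measured to another TRPM8 start, was 12188 bp. At LOC105376065 the replicate 1 summit of a MER77 element fell inside an E-box, and the replicate 2 summit lay 49 bp from it, with scores of 14.9 and 44.2. The other 3 members inside a window lay at RAP1GAP2 (LTR79), LOC105378929 (LTR18C) and LOC105373933 (MER21B), with replicate 1 scores of 8.16, 4.89 and 3.91. The RAP1GAP2 window held an E-box 52 bp and 61 bp from the summits.

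The T-box core stood in 2 of the 7 windows, and in 16.8% of all 35116 RefSeq windows of this length. The longer letters GGTGTGA and AGGTGTGA stood in 0 of the 7, against 3.45% and 0.98% of all windows. The E-box was in 2 of the 7 (7.26% of all windows), the M-box in 1 (2.92%), the AP-1 site in 3 (7.71%) and the SOX letters in 3 (16.1%). The windows are few, and a match is a run of letters and not a binding site.

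Most members lay in MaLR elements. The MaLR family held 1065 members (66.7%, 64.4% to 69.0%), the ERVL family 529 (33.1%), and 2 members had the uncertain label ERVL?. Among all ERVL summits, with or without a partner, the MaLR share was 64.5% in replicate 1 and 67.8% in replicate 2. How common the elements of each family are in the genome was not analysed here. By name, the oldest MaLR group MLT1 held 699 members (43.8%), MST 227 (14.2%) and THE1 84 (5.26%). LTRs of the LTR16 names held 106, LTR33 names 47 and MLT2 names 33. Another 255 members had other LTR names, and 145 (9.09%) lay in internal parts. Members had 157 repeat names, of which 26 names with at least 20 members each held 959 members (60.1%), and 37 names had 1 member.

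The share of summits with a partner, a value used in choosing the members, is given by group as a description. It was 79.4% of 286 in MST (74.3% to 83.7%), 71.8% of 973 in MLT1 (68.9% to 74.6%) and 70.6% of 119 in THE1 (61.9% to 78.0%). In the ERVL family it was 58.6% of 181 in LTR16 (51.3% to 65.5%), 55.9% of 59 in MLT2 (43.3% to 67.8%) and 53.4% of 88 in LTR33 (43.1% to 63.5%). The other LTR names, which were of the ERVL family but for 2 members labelled ERVL?, had 72.6% of 351 (67.8% to 77.0%). A summit with a higher score more often had a partner throughout the lists, so the share that all replicate 1 summits had in the same score deciles is set beside each group. It was 74.3% for MST, 69.1% for MLT1, 64.7% for THE1, 61.0% for LTR16, 54.4% for MLT2, 63.2% for LTR33 and 68.9% for the other LTR names.

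By part of the element, of 2057 summits in LTRs 70.5% had a partner (68.5% to 72.5%), and of 343 in internal parts 42.3% (37.2% to 47.6%). The score deciles of all summits would give 68.2% and 50.6%. From the lowest score decile up, the shares of internal parts and LTRs were 9.59% and 20.1% in decile 1, 21.0% and 33.6% in decile 2, and 28.1% and 47.6% in decile 3, with overlapping intervals in each. In decile 4 they were 62.5% and 62.3%. The internal parts were lower again in deciles 5 to 7, with overlapping intervals. Their shares were 66.7%, 77.8% and 91.7%, beside 77.1%, 88.4% and 95.8% in LTRs. From decile 8 up all 37 internal summits had a partner. These shares are part of how members were chosen and describe the summits from which they came. Members in internal parts had median scores of 12.1 and 18.3 in replicates 1 and 2, and members in LTRs had 16.6 and 27.0. How reads that fit several copies of an element were handled is not given in the sources used here, and its part in these shares was not tested.

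**Figure D1:**
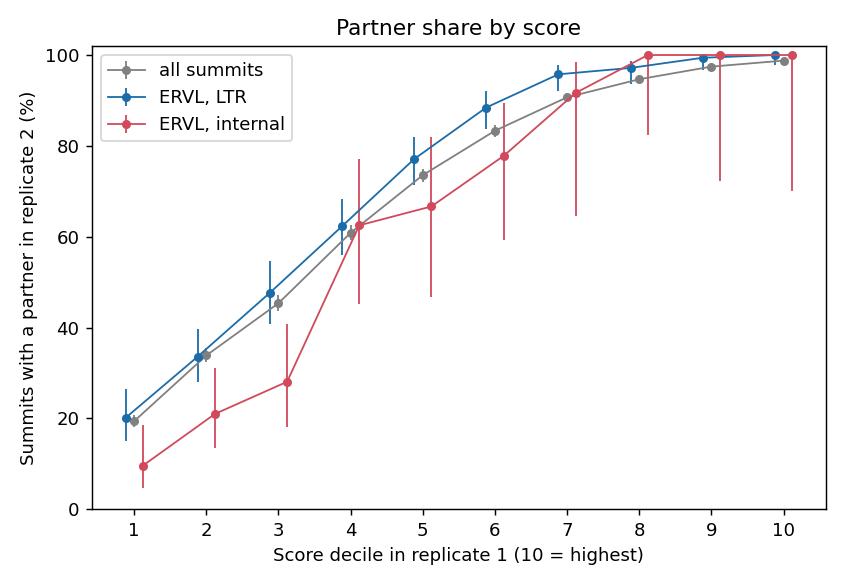
Share of replicate 1 summits with a partner in replicate 2 (y axis, percent) by decile of the replicate 1 score (x axis), for all summits (grey), ERVL summits in LTRs (blue) and in internal parts (red), with 95% Wilson intervals. The internal parts lie below the LTRs in deciles 1 to 3 and 5 to 7, and reach 100% from decile 8.

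Single repeat names varied around these group values. MSTB1, an LTR of the MST group, had the most members, 82 of 93 summits with a partner (88.2%, 80.1% to 93.3%). It was followed by MLT1A0 with 76 of 98 (77.6%), MLT1H with 58 of 75 (77.3%), MSTA with 55 of 75 (73.3%) and MLT1C with 53 of 77 (68.8%). The highest share among the 26 names was that of MLT1E2, 24 of 26 (92.3%, 75.9% to 97.9%), beside 74.3% from its score deciles. The lowest was that of MLT1B, 22 of 46 (47.8%, 34.1% to 61.9%), beside 58.2% from its score deciles. These 2 names were the extremes of 26, so their distance from the rest is partly a matter of picking them. The most frequent THE1 LTR, THE1B, had 41 members of 63 summits (65.1%), and the most frequent internal part, ERV3-16A3_I-int, had 28 of 44 (63.6%).

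**Figure D2:**
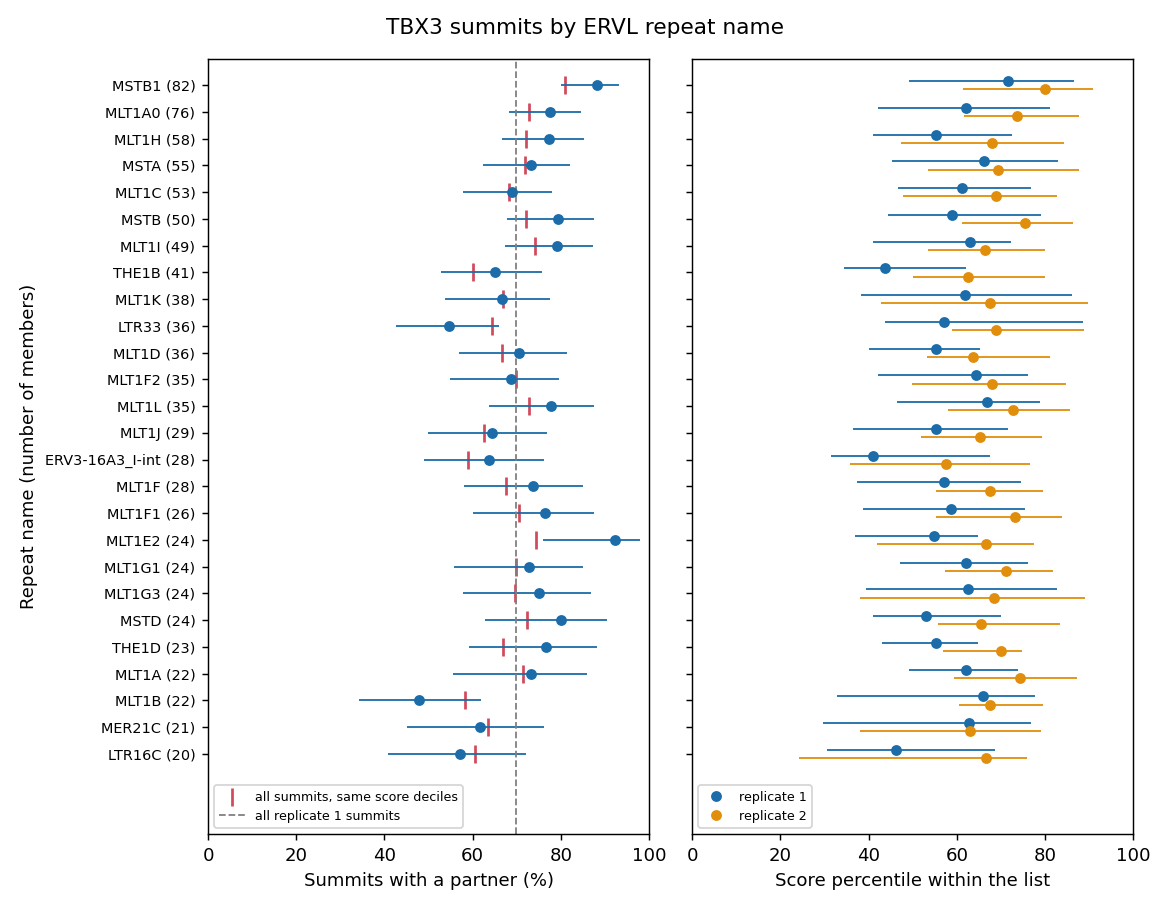
The 26 repeat names with at least 20 members. Left: percent of replicate 1 summits with a partner, with 95% Wilson intervals, the value from score deciles of all summits (red bars) and 69.9% for all summits (dashed line). Right: median (points) and quartiles (lines) of the members' score percentile within the list of replicate 1 (blue) and replicate 2 (orange). MSTB1 has the highest medians of both replicates.

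The strength of the members was read as the percentile of the score within its own list, 100 being the highest. The median was 57.2 in replicate 1 (95% interval of the median 56.2 to 59.8, quartiles 37.8 and 78.0) and 67.9 in replicate 2 (66.5 to 69.6, quartiles 47.9 and 84.2). All shared regions had medians of 63.6 and 70.5, and shared regions in introns or intergenic sequence outside repeats had 64.9 and 73.7. Shared regions in the other LTR families, which number 795, had 54.5 and 67.3. Members with a score above the 90th percentile numbered 176 in replicate 1 (11.03%), beside 14.1% of all shared regions, and 247 in replicate 2 (15.5%), beside 17.6%. The share of shared regions that were members was 8.20% in the sixth score decile of replicate 1 and 5.49% in the highest, where it counted 176 of 3208 regions.

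MSTB1 members had the highest median percentile of the 26 names, 71.7 in replicate 1 and 80.0 in replicate 2, and 17 of the 82 lay above the 90th percentile in replicate 1. The next in replicate 1 were MLT1L with 66.9 (72.7 in replicate 2) and MSTA with 66.1 (69.3 in replicate 2). At the other end stood ERV3-16A3_I-int with 41.0 and 57.5 and THE1B with 43.8 and 62.5. The quartiles of all 26 names overlapped in replicate 1 (49.1 to 86.6 for MSTB1, 34.5 to 62.1 for THE1B). Percentiles were higher in replicate 2 for 1204 of the 1596 members (75.4%), with a median shift of 5.78, and for 67.0% of all shared regions, with a shift of 3.63. Outside satellite repeats the values were 73.2% and 4.93, in introns and intergenic sequence outside repeats 74.1% and 5.04, and in the other LTR families 77.4% and 6.68, so the members lay within the range of other regions. The lists differ in length and the cause of the shift was not tested, so it cannot be read as a change in binding.

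**Figure D3:**
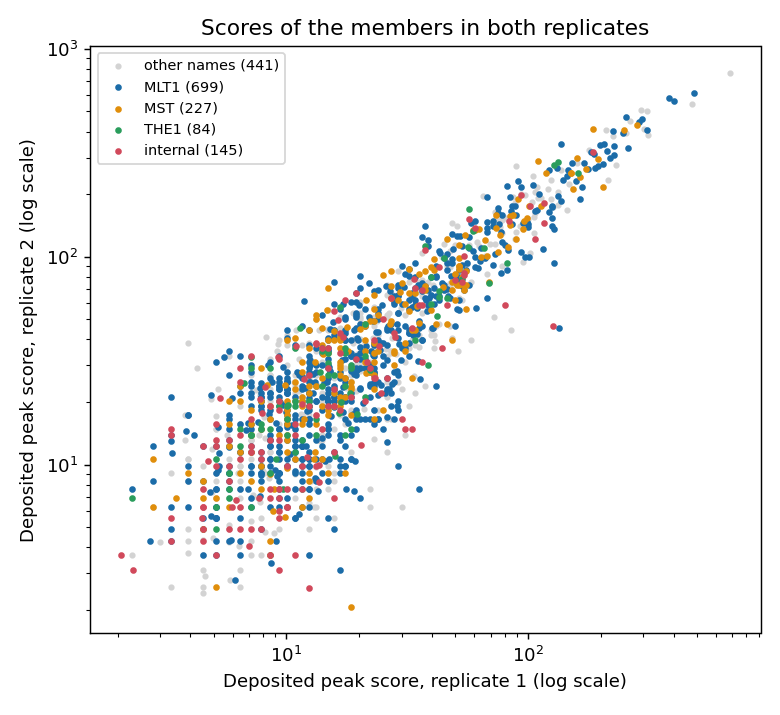
Deposited peak scores of the 1596 members in replicate 1 (x axis) and replicate 2 (y axis), both on log scales, coloured by repeat group. Scores of the 2 lists rise together (Spearman's rho 0.838), with exceptions such as an MLT1N2 element at 134.0 and 45.3. The highest point is an element named MER70C with scores of 685.2 and 768.9.

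Spearman's rho between the members' scores in replicates 1 and 2 was 0.838, beside 0.852 for all shared regions, which describes regions within 1 pair of libraries. Member summits of the 2 replicates lay a median of 32.5 bp apart (quartiles 15 and 57), beside 28 bp for all shared regions and 34 bp for the other LTR families. They fell on the same base at 11 members, beside 293 of all 22702 shared regions and 6 of the 795 in the other LTR families. Just inside the pairing limit, 43 members with summits at least 150 bp apart had a median replicate 1 score of 7.12. Just outside it, 38 ERVL summits with the nearest replicate 2 summit at 201 to 300 bp had a median score of 6.98. Of the 804 ERVL summits without a partner, 668 had no replicate 2 summit within 1000 bp, a count that was not made for all summits. None of the 804 was above the 90th percentile of its list, where 98.8% of all replicate 1 summits had a partner. Having a partner was part of the choice of members.

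The 10 members with the lowest sum of score ranks comprised 6 MaLR and 4 ERVL elements, 5 of them intergenic and 5 in introns. They lay between 9941 and 94100 bp from the nearest transcription start site (TSS), and their summits were at most 50 bp apart. For 6 of the 10 the nearest gene was a non-coding RNA, beside 31.1% of all members and 29.0% of all shared regions. The 10 regions are too few for a comparison.

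The strongest member was a MER70C element on chromosome 14 in hg38, with summits at 25109156 and 25109159 and scores of 685.2 and 768.9, which ranked 5 in each list. It was intergenic, 58859 bp upstream of STXBP6, which encodes amisyn, a regulator of SNARE complexes in exocytosis. The second, an MLT1A0 element on chromosome 1 (24435987 and 24436001), lay in intron 3 of 12 of NIPAL3, a gene related to magnesium transporters, with scores of 488.1 and 614.4. The third, an LTR16E1 element on chromosome 1 (27650906 and 27650883), was intergenic, 11816 bp from the non-coding gene LINC02574, with scores of 475.5 and 540.9. These 3 ranked no lower than 101 in either list.

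Another MLT1A0 element, on chromosome 10 (73710104 and 73710154), lay in an intron, 12308 bp upstream of AGAP5, of a family of ArfGAP genes in segmental duplications, with scores of 384.3 and 579.5. An MLT1K element on chromosome 5 (31733510 and 31733533) lay in intron 1 of 24 of PDZD2, which encodes a protein with PDZ domains, with scores of 401.2 and 558.7. The replicate 1 scores of the other 5 ran from 288.7 to 310.9, and the replicate 2 scores from 406.8 to 507.0. They were MER70C near MIR1297 on chromosome 13 (54227065), MER77B in LINC01133 (chromosome 1, 159971165), MLT1L near LINC01767 (chromosome 1, 56430131), MLT1B near DPH6-DT (chromosome 15, 35495376) and MLT1H2 near LINC00520 (chromosome 14, 55846155). In both lists 14 members were above the 99th percentile, a count that was not made for all shared regions.

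MER70C, MER70A and MER77B were looked at further after their values were seen, because MER70C had 2 of these 10 members. It had 14 members of 19 replicate 1 summits, whose percentiles in replicate 1 ran from 32.7 to 100.0. Besides the regions near STXBP6 and MIR1297, a MER70C element on chromosome 14 (86168659), 233981 bp from LINC02328, had scores of 264.6 and 449.0. Thus 3 of its 14 members were above the 99th percentile in replicate 1, and the other 11 were at 83.9 or lower. The related MER70A had 6 members of 9 summits, the strongest near RBM43 with scores of 224.4 and 379.7. MER77B had 19 members of 20 summits (interval of the share 76.4% to 99.1%), with percentiles from 5.43 to 99.2 in replicate 1. Copies of a single name thus covered most of the range of scores.

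Members were annotated as intergenic in 977 cases (61.2%, 58.8% to 63.6%) and as intronic in 613 (38.4%, 36.1% to 40.8%), with no annotation for 6. The deposited repeat label occurs only outside promoters, exons and gene ends, since none of the 2400 and 3176 ERVL summits of the 2 lists had such a class, so the absence of promoter members follows from the annotation. Among intergenic and intronic regions, the intergenic share was 61.4% of members (59.0% to 63.8%), 66.5% in the other LTR families (63.1% to 69.7%) and 45.5% outside repeats (44.6% to 46.4%). In LINE elements it was 49.6% (47.1% to 52.0%) and in SINE elements 41.3% (38.3% to 44.4%). Over all shared regions it was 57.2%, and over those outside satellite repeats 48.3%. Among all members of a group, the intergenic share was 75.2% of the 145 internal members, 72.6% of the 106 LTR16 members, 69.7% of the 33 MLT2 members and 60.8% of the 255 with other LTR names. It was 58.1% of MLT1, 58.1% of MST, 58.3% of THE1 and 55.3% of LTR33 members. Where such elements lie in the genome at large was not analysed here, so these shares are not set against the distribution of the elements themselves.

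The median distance from a member to the nearest TSS was 42657 bp (quartiles 19139 and 108075), beside 40853 bp for intronic and intergenic shared regions outside repeats and 38442 bp for the other LTR families. Within 10 kb lay 12.6% of the members, beside 16.2% and 17.2% of these regions. Further than 100 kb lay 26.6% of the members, beside 23.8% and 26.0%. All shared regions had a median of 51091 bp, with 34.9% further than 100 kb. Those outside satellite repeats had 37088 bp and 22.5%. A single member was within 1 kb by the deposited distance. It was an MLT2F element in intron 1 of 1 of HULC, a non-coding RNA first described in liver cancer, 281 bp from the TSS, with scores of 9.28 and 12.2 and summits at 8652490 and 8652326 on chromosome 6. Upstream of the TSS lay 48.4% of the members, beside 43.4% of all shared regions, 42.7% outside repeats and 50.6% in the other LTR families. The nearest gene was protein-coding for 63.5% of the members and a non-coding RNA for 31.1% (28.9% to 33.5%), beside 30.3% outside repeats.

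Most genes had 1 member. Of the 1596 members, 9 had no nearest gene named. The others had 1363 different nearest genes, of which 1181 had 1 member, 149 had 2 and 33 had 3 or more. LINC00971 on chromosome 3 had the most, 5 members between 83926341 and 84598459, of 23 shared regions nearest to it. They were MSTA, MSTB1, MSTB2, ERVL-B4-int and THE1B-int elements, the MSTA element with scores of 174.2 and 263.3 and the others at or below 10.8 in replicate 1. All 5 lay far from the gene, the nearest 271116 bp from its TSS.

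The genes with 4 members were CADPS, CWH43, ICE1, KIAA1024 (now MINAR1), LINC02223, NPIPA7 and VRK2. CADPS, which encodes a priming factor of dense-core vesicle exocytosis, had 4 members on chromosome 3 in MLT1A, THE1B, MLT1K and MLT2A2 elements, at percentiles of at most 58.9 in replicate 1. ICE1 encodes a subunit of the little elongation complex, which acts in the transcription of small nuclear RNA genes. There the nearest of 4 members was an LTR50 element 4572 bp upstream of the TSS, with scores of 40.8 and 36.5. At KIAA1024 a THE1B element reached 128.2 and 276.8 and an ERV3-16A3_I-int element 54.3 and 101.3, both upstream. VRK2, a serine/threonine kinase gene, had an MSTB1 element with scores of 55.5 and 85.1, but 628996 bp upstream of the TSS. LINC02223, a non-coding RNA gene, had an LTR40b element with scores of 107.1 and 162.3 and 3 weaker members. CWH43, of glycolipid anchor synthesis, and NPIPA7, of a duplicated gene family, had members at percentiles of at most 69.6 and 78.8 in replicate 1. By symbol, the next of the genes with 3 members were ACOT7, an acyl-CoA thioesterase gene with an MLT1A0 element at scores of 259.5 and 334.4, and BASP1, which encodes a membrane protein of growing axons, with an MLT1B element at 98.9 and 146.5.

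Of 28 melanocyte genes, 6 had a member within 100 kb for which they were the nearest gene (21.4%, 10.2% to 39.5%), beside 3.42% of the 20037 protein-coding genes. Shared regions of any kind lay within that distance of 24 of the 28. The same share over all protein-coding genes is not given here, for this list or the 2 below. Of the 105 shared regions there, 8 were members (7.62%, 3.91% to 14.3%), beside 7.03% of all shared regions, and this share shows nothing particular to ERVL elements. None of 10 T-box genes and none of 5 growth arrest genes had such a member, while 5 and 2 of them had shared regions within that distance. The lists were chosen with earlier results of these data known.

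At TYR, the gene of tyrosinase, the rate-limiting enzyme of melanin synthesis, an LTR33 element 9204 bp upstream of the TSS held summits at 89168668 and 89168675 on chromosome 11. Its scores were 62.8 and 112.4, percentiles 88.5 and 92.7. At TRPM1, a melanocyte ion channel gene on chromosome 15, an MSTB1 element in intron 1 of 26 held summits at 31135743 and 31135737, with scores of 54.3 and 73.3. At RAB38, which encodes a GTPase of melanosome cargo transport, an MLT1J2 element 71839 bp from the TSS had scores of 45.1 and 98.5 (88103628 and 88103634 on chromosome 11). These were the 3 strongest members within 100 kb of a listed gene, and the lowest of their percentiles was 83.5. Beyond 100 kb, RAB38 had a stronger MLT1J2 element at 111019 bp with scores of 84.9 and 165.9. MYO5A, the gene of the myosin that carries melanosomes, had an MSTD element at 111306 bp with scores of 16.6 and 29.0.

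DCT, the gene of dopachrome tautomerase in eumelanin synthesis, had 2 members on chromosome 13. An MSTC element in intron 1 of 9 had both summits at 94516711 and scores of 23.1 and 55.9, and an MLT1D element 1305 bp upstream of a TSS had scores of 14.9 and 29.0 (94480987 and 94481008). Near IRF4, a transcription factor gene of pigmentation, an MSTA-int element at 457113 on chromosome 6 had scores of 17.1 and 41.3, at 65374 bp. MITF, the master regulator of melanocytes, had an MLT1F element 10034 bp upstream with scores of 9.28 and 10.6 and an MSTB1 element 49793 bp upstream with scores of 12.4 and 6.91. A THE1B-int element lay further upstream, at 129619 bp, with scores of 14.9 and 19.2. The MITF members were thus below the median percentile of all members in both lists.

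The members were spread over all chromosomes, with 11 on unplaced or alternative sequences. Relative to the 18929 shared regions outside satellite repeats, of which they were 8.43%, members were most frequent on chromosome 4, 126 of 1074 (11.7%, 9.94% to 13.8%). Next were chromosome 20 with 68 of 618 (interval 8.77% to 13.7%) and chromosome 5 with 122 of 1167 (10.5%, 8.83% to 12.3%). They were least frequent on chromosome 18, 19 of 404 (4.70%, 3.03% to 7.23%), and chromosome 11, 44 of 834 (5.28%, 3.95% to 7.01%), among chromosomes with at least 100 such regions. The density of ERVL elements on each chromosome and the copy number of the chromosomes in this line were not analysed here.

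**Figure D4:**
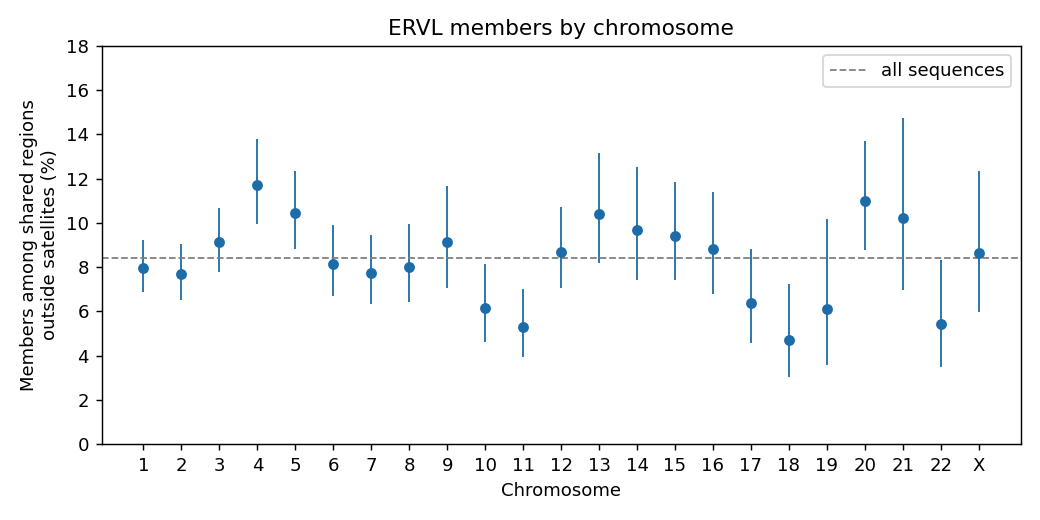
Members as a percent of shared regions outside satellites (y axis) on each chromosome with at least 100 such regions (x axis), with 95% Wilson intervals; the dashed line is the value over all sequences, 8.43%. Chromosomes 4, 5 and 20 lie above the line and 10, 11, 18 and 22 below it beyond their intervals.

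The repeat read at the replicate 2 summit was again ERVL for 1485 members (93.0%) and carried the same name for 1471 (92.2%). For 77 members (4.82%) the replicate 2 summit fell outside any repeat, and for 16 it fell in an Alu element. Members with an ERVL label in both lists had summits a median of 30 bp apart, and those outside any repeat in replicate 2 a median of 72 bp. For 1585 members (99.3%) both lists had the same entry for the nearest gene, where an empty entry in both lists also counted as the same.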

How the data were processed

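Peak lists of the 2 TBX3-3xHA ChIP samples were used. Each list, per the file headers, holds peak summits of 1 sample annotated with annotatePeaks.pl of HOMER against hg38. The submitters' processing notes name FastQC 0.11.7, cutadapt 2.8, Bowtie2 2.3.5, MACS2 2.1.2 and SAMtools 1.9, without their roles. The threshold, the control and the scale of the peak score, which the authors deposited with each list, are not given in the sources used here. Scores were used only to rank and describe summits within a list (ties at their mean rank, 80.5% and 81.0% of summits). Other deposited values are positions and distances in bp, per the file headers.

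Summits were paired when mutually nearest and within 200 bp. Intervals are 95% Wilson intervals, or order-statistic intervals for medians. No genome was at hand. RefSeq promoter windows (GRCh38.p14) were used for sequence, after the deposited distances had given a start within 100 bp of a window's start for 78.6% of 14365 shared regions. Gene identifiers of 1580 of 1587 members matched the RefSeq gene table. Named were repeat names with at least 20 members, the 10 members of lowest rank sum, those within 1 kb of a TSS, the first 10 genes nearest to 3 or more members, and listed genes with a member within 100 kb. Members and lists were chosen with earlier results of these data known. Pairing and intervals were tested on simulated data. Python 3.11.15, pandas 2.3.3 and SciPy 1.17.1 were used. Alternatives covered pairing distance, annotating list, score threshold, sequences, family label and replicates.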

Additional observations from a re-analysis of the deposited data

How the results depend on the processing

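Of 82 alternative values, 52 stayed within the interval of the main value (or within 1.5 times the count) and 30 moved. The MaLR share, the intergenic share and the median distance to the TSS stayed within it under each alternative but the same base, which left 11 members and gave 45.5%, 45.5% and 32702 bp. The cause of the other changes was not tested, except that stricter settings keep fewer and stronger summits by construction. The number of members moved to 940 for scores at or above the median of each list and to 246 for the 5000 highest scores. Without one replicate, it ran from 2400 to 3176. The share with a partner moved to 0.458% at the same base, 46.0% within 50 bp, 60.5% within 100 bp, 69.4% within 500 bp, 49.5% with the annotation of replicate 2, 61.9% with the ERVL family in both lists, 87.0% above the median score and 89.8% in the highest 5000. Leaving out internal parts gave 70.5% and weighting score deciles as in the whole list 71.0%, both chosen after seeing the data. The median percentiles of replicates 1 and 2 moved to 84.3 and 87.8 at the same base, 64.9 and 74.0 within 50 bp, 60.6 and 70.1 within 100 bp, 73.6 and 80.8 above the median score, and 92.7 and 95.2 in the highest 5000. For all ERVL summits of 1 list, without the other replicate, they were 43.8 and 43.5. The planned share of members with a T-box core around the summit was not run, since it needs a genome. No paired analysis was possible because only the ChIP samples have lists here, so no second group shares their replicate numbers.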

Other observations

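Gaps between neighbouring members are given as a description only, since the gaps of other shared regions were not computed. The median gap between neighbouring members was 944 kb, 40 of 1563 gaps were 10 kb or less, and 12 were 2 kb or less. Of the 40, 2 joined elements of the same name. On chromosome 16 an MLT1J element and an MLT1H element with members stood 1258 bp apart near RRN3P1 (21790761 and 21792019) and another such pair stood 1654 bp apart near LOC653786 (22606864 and 22608518). At CDH8, a cadherin gene, MSTA and MSTB elements held summits 837 bp apart (63336760 and 63337597). These pairs were chosen after their positions were seen, and whether the elements are parts of duplicated segments was not tested.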
